A study of Mus musculus with 6 samples.

Results

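The 35 genes described here encode structural parts of the mouse centromere and kinetochore. They were chosen by name, from a list of centromere (Cenp) genes, subunits of the outer kinetochore complexes and loading factors of the centromeric histone. All 35 were found among the 54658 gene entries of the single-oocyte table. In the table of pools, which lists 14165 genes, 34 were found, and Cenpb, without a row there, was left out of that comparison. The libraries held polyadenylated RNA of mouse eggs arrested in metaphase of the second meiotic division (MII) until fertilisation, amplified from end to end by Smart-seq2. One sample consisted of 59 single oocytes labelled aged and another of 35 single oocytes labelled young, both untreated. In the remaining 4 samples 10 young oocytes were pooled, 2 of them given control short interfering RNA (siCtrl) and 2 short interfering RNA against Plat (siPlat), the gene of tissue-type plasminogen activator. The labels state neither strain nor age in weeks and name no animal, so the spread between pools may be technical and each age is 1 sample.

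The centromere is the stretch of chromatin, marked by the histone H3 variant CENP-A, on which a kinetochore is built. A constitutive centromere-associated network sits on CENP-A chromatin, and the Knl1, Mis12 and Ndc80 complexes on top of it bind spindle microtubules, with the Ska complex stabilising that attachment. A fully grown oocyte transcribes little and the RNA of an MII oocyte is largely a stored supply. Loss of chromosome segregation fidelity is a known feature of eggs from older females.

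Stretches of promoter sequence are shown first, because cell-cycle genes are known to share short promoter elements. Whether such elements have a part in the levels or the covariation given below was not tested. Of the 35 genes, 32 had an entry in the RefSeq promoter table for GRCm38.p6, the assembly that mm10 names (250 bases before to 50 bases after the annotated start), and Spc24, Nsl1 and Ska1 are named only. The letters searched, on both strands, were CCAAT, the cell-cycle homology region TTTGAA, and the E2F letters TTTGGCGC, TTTCCCGC and TTTCGCGC. Where a gene had several promoters, the first listed was taken. CCAAT was found in 21 of 32 promoters (65.6%) against 37.9% of the 27025 genes with an entry and 39.0% of the 17492 that code for protein. TTTGAA was found in 12 (37.5%) against 18.1%, and both together in 9 (28.1%) against 7.12%. An E2F run was found in 4 (12.5%: Cenpb, Cenpl, Cenpm and Dsn1) against 1.91%, and 11 promoters (34.4%) held CCAAT at least 2 times against 12.2%. Over the coding genes these shares were 16.5% for TTTGAA, 6.68% for CCAAT with TTTGAA, 2.475% for E2F and 13.45% for CCAAT at least 2 times. Different motifs overlapped in 1 promoter, that of Cenpw. A match of letters is a description of the sequence and not a measured binding site.

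The first 4 sequences belong to the pairs whose levels moved together most closely across young oocytes, Cenpn with Dsn1 and Cenpe with Cenpf. The 2 that follow belong to Cenpq and Mis18a, the genes with the highest ratio of aged over young. Capitals mark the searched letters on either strand (ATTGG is CCAAT read from the other strand, and TTCAAA is TTTGAA read from the other strand), and each is written 5′ to 3′ along the gene. They lie at chr8:116921490-116921789 (plus strand), chr2:157007026-157007325 (minus), chr3:135212313-135212612 (plus), chr1:189688037-189688336 (minus), chr17:40934525-40934824 (minus) and chr16:90727322-90727621 (minus).
Cenpn: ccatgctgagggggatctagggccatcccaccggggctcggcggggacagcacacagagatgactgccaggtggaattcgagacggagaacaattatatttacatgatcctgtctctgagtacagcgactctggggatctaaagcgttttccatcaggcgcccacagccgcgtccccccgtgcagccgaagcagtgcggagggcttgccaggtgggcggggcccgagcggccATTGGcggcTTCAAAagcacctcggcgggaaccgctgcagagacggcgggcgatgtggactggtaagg
Dsn1: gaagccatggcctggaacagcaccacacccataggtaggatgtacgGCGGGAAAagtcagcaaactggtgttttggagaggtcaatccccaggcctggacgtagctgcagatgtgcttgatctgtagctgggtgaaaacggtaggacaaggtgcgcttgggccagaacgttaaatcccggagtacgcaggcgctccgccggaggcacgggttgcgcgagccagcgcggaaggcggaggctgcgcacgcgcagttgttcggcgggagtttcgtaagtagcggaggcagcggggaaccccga
Cenpe: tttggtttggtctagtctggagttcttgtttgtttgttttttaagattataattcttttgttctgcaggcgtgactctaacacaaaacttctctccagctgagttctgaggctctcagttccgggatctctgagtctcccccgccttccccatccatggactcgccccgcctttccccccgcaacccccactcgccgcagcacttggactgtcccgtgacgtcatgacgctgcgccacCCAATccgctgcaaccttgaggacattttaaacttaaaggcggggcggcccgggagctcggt
Cenpf: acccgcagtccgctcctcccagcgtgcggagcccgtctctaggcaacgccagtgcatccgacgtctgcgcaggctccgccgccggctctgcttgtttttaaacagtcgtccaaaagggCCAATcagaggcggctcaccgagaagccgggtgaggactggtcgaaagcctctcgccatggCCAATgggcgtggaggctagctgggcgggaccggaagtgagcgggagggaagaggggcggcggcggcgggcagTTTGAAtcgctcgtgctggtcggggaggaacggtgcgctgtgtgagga
Cenpq: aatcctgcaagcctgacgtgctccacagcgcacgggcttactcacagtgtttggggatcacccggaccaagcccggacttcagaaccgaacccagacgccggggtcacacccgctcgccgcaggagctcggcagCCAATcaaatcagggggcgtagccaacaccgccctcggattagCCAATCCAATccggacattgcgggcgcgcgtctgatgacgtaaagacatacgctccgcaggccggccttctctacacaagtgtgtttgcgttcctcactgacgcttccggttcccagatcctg
Mis18a: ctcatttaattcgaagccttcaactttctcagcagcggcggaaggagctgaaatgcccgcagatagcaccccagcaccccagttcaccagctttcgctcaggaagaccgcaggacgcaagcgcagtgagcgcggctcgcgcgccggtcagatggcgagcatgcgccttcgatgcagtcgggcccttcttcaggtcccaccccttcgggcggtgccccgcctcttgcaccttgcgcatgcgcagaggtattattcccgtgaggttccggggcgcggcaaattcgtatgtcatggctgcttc

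Cenpn held 1 CCAAT and 1 TTTGAA close to its start and Cenpf 2 and 1, whereas Dsn1 held a single E2F run and neither of the other motifs. Cenpq held 3 CCAAT, 2 of them adjoining. In the window of Mis18a none of the searched letters was found.

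Several libraries stood apart. In 21 of the 59 aged oocytes, mitochondrially encoded genes took 6.78% to 61.6% of the gene counts, against at most 2.97% in the other 38 and at most 1.92% in the young. Those 21 libraries also had a count for 7385 to 13849 genes, against 14140 to 17575 in the young. Every comparison of ages is therefore given with all oocytes and without these 21, a limit of 5% that was set with earlier results of these data known. Gene counts ran from 5480050 to 11894782 per young oocyte, from 2018226 to 9502184 per aged oocyte and from 12142884 to 17475952 per pool. Plat fell from 441 and 439 CPM (a gene's counts scaled to a library total of 1000000) in the siCtrl pools to 51.4 and 39.0 in the siPlat pools (log2 fold change -3.28, edgeR adjusted p = 6.21e-06). Of 9 oocyte markers the summed level was 13440 to 22760 CPM in young oocytes, 12370 to 22260 in the 38 aged oocytes and 680 to 3106 in the 21. Gdf9 was the largest part of the sum in the young. Every marker had a lower median in the 21 than in the young, by unlike amounts. Gdf9 went from 10530 to 88.9 CPM, Zp3 from 227.9 to 17.6, Nlrp5 from 455.7 to 191.6, Zp2 from 157.7 to 101.8 and Figla from 1.435 to 1.3. In the 38 the medians of Gdf9 (7493) and Mos (1033) were lower than in the young and those of the other markers higher. The 9 cumulus and granulosa cell markers summed to 48.1 to 106 CPM in the young, nearly all of it Cyp19a1, with Fshr, Foxl2, Amh, Tnfaip6 and Ptx3 at a median of 0, and to 26.1 to 89.9 CPM in the 38 and 0 to 30.9 CPM in the 21. The 5 stromal, thecal and endothelial markers, mostly Pecam1 with Col1a1 and Cyp17a1 at a median of 0, summed to 97.6 to 229.9 CPM in the young (median 168), 69.9 to 172 in the 38 (median 106) and 0 to 29.97 in the 21. The 5 blood and immune markers, with Hbb-bs, Hba-a1 and Ptprc at a median of 0, summed to 4.74 to 21.2, 3.82 to 18.96 and 0 to 125. The part of these in the ratios of ages was not tested.

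Most of the kinetochore was present as RNA in the egg. In young oocytes 31 of the 35 genes had a count in every oocyte, and the exceptions were Cenpb, Cenpl, Cenpt and Nsl1. Levels are compared between genes as CPM per kilobase (kb) of exon, with all annotated exons of a gene joined. That length can exceed a transcript by far: it was 5860 bases for Cenpa and 4063 for Pmf1. Their longest coding transcripts had 1466 and 1007 bases. The order of genes, within complexes too, holds for the joined exons and was not computed with transcript lengths. Cenpn, which encodes the reader of the CENP-A nucleosome, was highest, at 144 to 423 CPM per kb over the 35 young oocytes (median 201). Next came Dsn1, a subunit of the Mis12 complex, at 136 to 245 (median 178), and Cenph, of the inner network, at 91.9 to 142 (median 109.6). Cenpe, the kinesin motor of the outer corona, lay at 46.7 to 96.8 (median 64.2), and Hjurp, the chaperone that deposits CENP-A, at 35.4 to 86.8 (median 58.9). Thus the top of the order mixed inner, outer and corona genes. By this length CENP-A itself (Cenpa) came 11th at a median of 20.9 CPM per kb. Every one of the 34 neighbouring pairs in the order of medians had overlapping ranges over the young oocytes, so the order of neighbours is within the spread between oocytes.

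At the other end, Oip5, the Mis18-beta partner in CENP-A loading, had a median of 0.73 CPM per kb. Cenpl and Nsl1 both lay at 0.39, and Cenpt, a histone-fold protein that links DNA to the Ndc80 complex, at 0.23. Cenpb, which binds a satellite DNA box, had counts in 5 of 35 young oocytes (14.3%, exact binomial 95% interval 4.81 to 30.3%) and in 0 of 59 aged oocytes, a count of 0 that allows up to 5.08% (3 of the 59). After every library was thinned to 2000000 counts, 3 of 35 young and 0 of 59 aged oocytes had one, and with 1 sample per age no difference between ages is read from this. Subunits of 1 complex were not at 1 level. Within the Mis12 complex the medians ran from 0.39 (Nsl1) through 7.91 (Pmf1) and 13.7 (Mis12) to 178 CPM per kb (Dsn1), and within the Ndc80 complex from 4.92 (Spc24) and 7.89 (Spc25) to 23.8 (Ndc80) and 46.4 (Nuf2). In the Ska complex they were closer, at 7.18 (Ska1), 5.28 (Ska2) and 9.56 (Ska3).

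**Figure D1:**
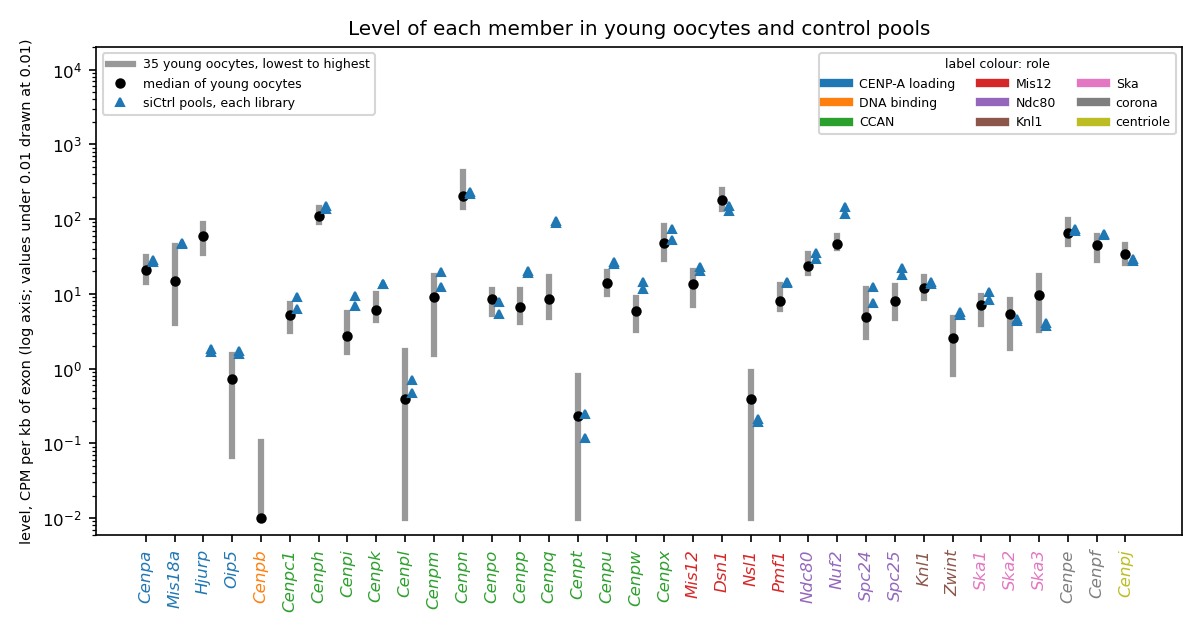
Level of each gene in CPM per kb of exon on a log axis, grouped by role (label colours; CCAN, constitutive centromere-associated network). Grey bars run from the lowest to the highest of 35 young oocytes with the median as a black point, and blue triangles are the siCtrl pools; Cenpn and Dsn1 are at the top and Cenpb, Cenpt, Cenpl and Nsl1 at the bottom.

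The order of the 34 genes in the siCtrl pools resembled that in young oocytes (Spearman rho 0.80 over the 34 genes, a description, since genes are no replicates). The 2 tables were counted and normalised separately, so single genes are set side by side without a test. Cenpn was at 230.4 and 216 CPM per kb in siCtrl 1 and 2 and Cenph at 138 and 151, near their young medians. Hjurp stood out, with a young median of 491 CPM against 13.8 and 15.2 CPM in the siCtrl pools, a ratio of 33.9. In the opposite direction, Cenpq was at a young median of 22.0 CPM against 231 and 242 CPM in the pools, a ratio of 10.8. The next largest ratio was that of Mis18a, 3.17-fold higher in the pools. Of the 34 genes, 21 were within 2-fold, 11 were at least 2-fold higher in the pools and 2 (Hjurp and Ska3) lower.

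The first comparison asked what changes in young MII oocytes when Plat is depleted. For the kinetochore genes the answer was small differences that did not pass the test. With 2 pools a group, 0 of the 34 genes reached an edgeR adjusted p under 0.05, where 3.54% of all 11136 tested genes did (2.13% higher and 1.41% lower). At an unadjusted p under 0.05 there were 7 genes, 6 higher and 1 lower, or 20.6% against 18.8% of all genes. The median log2 fold change was 0.22 over the members against -0.026 over all genes, with 24 above 0 and 10 below. By size, 28 genes differed by less than 1.5-fold. In 14 genes both siPlat pools lay above both siCtrl pools, 41.2% of the members against 23.5% of all genes, and in 7 both lay below, 20.6% against 25.8%. A pool holds 10 oocytes, and fewer oocytes contributing RNA and less of an RNA per oocyte cannot be told apart. The oocyte markers summed to 14180 and 14920 CPM in the siCtrl pools and to 11220 and 12840 in the siPlat pools, and the cumulus and granulosa markers (4 of 9 in that table) to 24.9 and 32.3 against 18.9 and 37.2. Blood and immune markers (2 of 5) summed to 8.30 and 8.85 against 3.96 and 4.78 CPM, and stromal, thecal and endothelial markers (3 of 5) to 23.4 and 23.8 against 13.7 and 15.8. The part of these in the values below was not tested.

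Among the inner, DNA-proximal genes, CENP-A loading showed little difference. Cenpa was at 156 and 168 CPM in the siCtrl pools and at 132 and 188 in the siPlat pools, so the siPlat pools lay on either side of both controls. Mis18a, which primes centromeres for new CENP-A, was at 134 and 136 against 146 and 128 CPM, and the groups overlapped. Hjurp had 13.8 and 15.2 CPM in the controls and 22.4 and 4.48 in the siPlat pools, so a single siPlat pool set its sign: the log2 fold change was -0.11 (SE 0.72), -1.70 without siPlat 1 (adjusted p = 0.00657) and 0.64 without siPlat 2.

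In the constitutive centromere-associated network 12 of 14 genes had a log2 fold change above 0, with a median of 0.27, and none passed. The 12 include Cenpt, near the floor at 0.90 and 0.42 against 1.72 and 0.31 CPM (log2 0.60, SE 1.11). They also include Cenpc1 (0.046) and Cenpo (0.13). The signs of Cenpt, Cenpc1 and Cenpo changed with the pools used. Cenpm, of the Cenp-H, -I, -K and -M group, stood at 19.8 and 31.5 CPM in the siCtrl pools and at 49.4 and 44.9 in the siPlat pools. Both siPlat pools were higher than both controls, while the controls differed from each other by more than the siPlat pools did. Its log2 fold change was 0.88 (SE 0.24), with an edgeR adjusted p of 0.0760. With DESeq2 the adjusted p was 0.0226, with limma-voom 0.0511, and without siCtrl 2 the log2 value was 1.254 (adjusted p = 0.0428), whereas without siCtrl 1 it was 0.58 (adjusted p = 0.475). Cenpw, a histone-fold partner of Cenpt, was at 60.8 and 49.3 against 90.2 and 68.1 CPM (log2 0.52, SE 0.21), and its groups did not overlap. Cenpk and Cenpp also had both siPlat pools above both controls, at log2 0.33 and 0.39, as had Cenph (0.26), Cenpq (0.21) and Cenpu (0.081). The pools of Cenpc1, Cenpi, Cenpo, Cenpt and Cenpx overlapped between groups. Cenpn went the other way, at 759 and 712 CPM in siCtrl and 577 and 628 in siPlat, without overlap (log2 -0.29, SE 0.14, adjusted p = 0.318).

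At the microtubule-binding end, the 4 subunits of the Ndc80 complex, a heterotetramer, had values in both directions. Spc24 stood at 19.2 and 31.6 CPM in the controls and at 12.9 and 11.4 after siPlat, the lowest adjusted p of all 34 genes (log2 -1.06, SE 0.29, edgeR adjusted p = 0.0714). Its partner Spc25, which forms the centromere-facing end with it, was at 57.3 and 70.6 against 105 and 87.4 CPM (log2 0.59, SE 0.19, adjusted p = 0.126). The groups of neither gene overlapped, and the siPlat pools were below the controls for Spc24 and above them for Spc25. Nuf2 was at 921 and 750.1 against 1071 and 1046 CPM (log2 0.34), and Ndc80 at 229 and 192 against 169 and 182 (log2 -0.26), again without overlap. For Spc24 the adjusted p was 0.0311 with DESeq2, 0.0877 with limma-voom and 0.0373 without siPlat 1, and the log2 value shrank to -0.66 without siCtrl 2.

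All 4 subunits of the Mis12 complex, which joins the inner network to Ndc80 and Knl1, had a log2 fold change above 0, with a median of 0.34. Of these Nsl1 was near the floor, at 1.01 and 1.13 against 1.03 and 1.49 CPM (log2 0.24, SE 0.83), and its pools overlapped. Pmf1, the mouse Nnf1 subunit, measured 57.5 and 56.9 CPM in the controls and 92.5 and 81.8 in siPlat (log2 0.61, SE 0.18, adjusted p = 0.0961, or 0.0369 with DESeq2). Mis12 lay at 61.2 and 68.2 against 91.2 and 79.3 CPM (log2 0.40, SE 0.18), and Dsn1 at 497 and 428 against 502 and 620.3 (log2 0.28). In these 3 genes both siPlat pools were above both controls, and only in Pmf1 was the gap between groups wide against the spread within them. Knl1, the large scaffold that carries checkpoint proteins, was at 124 and 114 against 88.1 and 99.7 CPM (log2 -0.34, SE 0.17), and its partner Zwint overlapped between groups. Ska2 was at 15.1 and 14.0 against 28.7 and 18.9 CPM (log2 0.71, SE 0.27, adjusted p = 0.181), while Ska1 and Ska3 overlapped. The corona gene Cenpf was at 957 and 965 against 1033 and 1230 CPM (log2 0.24) and Cenpe at 596 and 626 against 534 and 580.4 (log2 -0.13). Cenpj, named as a centromere gene but known for building centrioles, was at 144 and 136 against 123 and 111 CPM (log2 -0.25).

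Without siPlat 2, 5 of these genes passed (Cenpm, Cenpw, Spc25, Pmf1 and Ska2, all higher), where 5.44% of all genes were called higher, and without siPlat 1 there were 2 (Spc24 and Hjurp, both lower), where 2.78% were called lower. Without siCtrl 2 there was 1 (Cenpm, higher), where 0.790% of all genes were called higher. DESeq2 called Cenpm, Pmf1 and Spc24 among 6.13% of all genes, the fit with no filter on low counts Cenpm and Spc24 among 4.13%, and limma-voom and the other scalings none. Smaller differences also varied with the pools used. Without siPlat 1 the log2 value fell to 0.11 for Cenpk, 0.30 for Cenpw, 0.068 for Cenpq and 0.37 for Ska2. Without siPlat 2 it was 0.12 for Cenph, 0.13 for Dsn1 and 0.12 for Cenpf, without siCtrl 1 it was -0.13 for Ndc80, and without siCtrl 2 it was 0.20 for Nuf2.

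**Figure D2:**
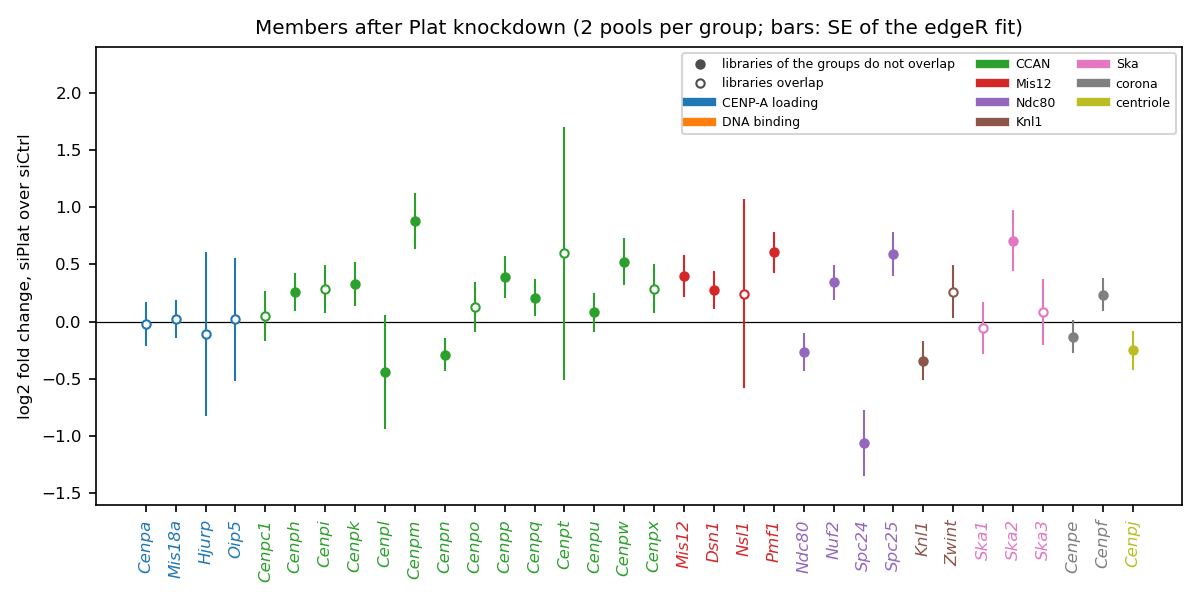
Log2 fold change of siPlat over siCtrl for the 34 tested genes, by role (label and point colours), with bars for the standard error of the edgeR fit and filled points where the pools of the groups do not overlap. Cenpm (0.88) and Spc24 (-1.06) lie farthest from 0 among genes with a narrow bar, and no gene passed the test.

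Around this core sit genes that regulate or use the kinetochore: the checkpoint, the chromosomal passenger complex, corona proteins, microtubule partners and centromeric cohesin. From a list of 32 such genes, 31 were tested in the pools. Of these 1 fell, Bub1b, the checkpoint kinase-like protein BubR1, from 712 and 593 to 375 and 312 CPM (log2 -0.93, SE 0.17, edgeR adjusted p = 0.0146). Cenps, the histone-fold partner of Cenpx, rose from 150.5 and 164 to 240.1 and 291 CPM (log2 0.76, SE 0.17, adjusted p = 0.0340). The other 29 did not pass, where 3.54% of all 11136 tested genes passed. The median log2 value of the 31 was -0.021, and 7 of them had an edgeR unadjusted p under 0.05, against 18.8% of all genes.

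The second comparison set aged beside young oocytes. Each age is 1 sample, so there is no test, and a difference of at least 1.5-fold in summed counts is only a size; intervals of summed levels are exact Poisson intervals at 95%, and cover counting error alone. Of the 30 genes with a mean level of at least 5 CPM, most were close to the young level, and a few lay farther from it. With all 59 aged oocytes 2 genes were at least 1.5-fold higher, Cenpq and Mis18a (6.67% against 9.45% of the 8303 genes with that level), and 1 was lower, Hjurp (3.33% against 9.38%). The median log2 ratio was -0.18 against -0.070 for all genes, with 9 of the 30 genes above 0. Without the 21 libraries 5 genes were higher, Cenpq, Mis18a, Ska3, Cenpp and Ska1 (16.7% against 8.87% of 8413 genes), and 0 lower (against 1.87%). The median was then 0.046 against 0.079 for all genes, with 19 of the 30 genes above 0. The siCtrl pools, also of young oocytes, were counted separately. There Cenpq was at 231 and 242 CPM, above the highest of the 38 aged oocytes (133), and Cenpp at 49.1 and 51.9, above their highest (41.1). Mis18a, at 134 and 136 CPM, was above the highest single young oocyte (126). Ska3, at 9.97 and 11.1, lay below all 38, and Ska1, at 22.1 and 28.0, within their range. What sets the 2 tables apart was not tested. In the ratios without the 21 libraries Ska1 (log2 0.59) lay just inside the 1.5-fold limit and Cenpk (0.57) just outside.

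These ratios compare shares of the gene counts. ERCC spike-ins, synthetic RNAs added to each lysate, made up 0.681 to 5.47 counts per 100 gene counts in young oocytes (median 1.57), 2.02 to 6.77 in the 38 aged (3.40) and 1.65 to 77.0 in the 21 (6.57). The young values were split, with none between 1.57 and 2.05, and those from 2.05 upward lay within the range of the 38 aged. Ratios scaled to the spike-ins use all young oocytes summed and were not computed for either part alone. On this scale the median of all genes moved to -1.47 with all aged oocytes and to -0.73 without the 21. On that scale 28 of the 30 genes were at least 1.5-fold lower with all oocytes and 20 without the 21, shares of 93.3% and 66.7% against 95.8% and 65.6% of all genes, and 1, Cenpq, was 1.5-fold higher without the 21. Relative to the all-gene median of the same scale, Cenpq was at 1.09 and 1.32 and Mis18a at 0.91 and 1.17.

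Cenpq encodes a subunit of the CENP-O, -P, -Q and -U group, which helps to recruit the kinase Plk1 to kinetochores. It lies on chromosome 17 at 40923051 to 40935047 (GRCm38, minus strand). Young oocytes held 12.9 to 43.1 CPM (median 22.0), the 38 aged oocytes 20.95 to 133 (median 60.7) and the 21 others 0.232 to 28.9 (median 7.36). The ranges of young and aged overlapped, yet 28 of the 38 aged oocytes lay above the highest young oocyte. Among the 38, libraries numbered 14 to 36 held 20.95 to 97.8 CPM and those numbered 41 to 56 held 50.4 to 133. The part of this order in the ratio of Cenpq was not tested. In summed counts the level went from 22.5 CPM (22.0 to 23.1) in the young to 61.6 CPM (60.7 to 62.6) in the 38, a 2.74-fold difference, and to 47.4 CPM (46.7 to 48.2) with all aged oocytes. The log2 ratio of 1.41 without the 21 ranked 20th from the top among 8413 genes. Of its exons, 95 bases overlap Mut on the other strand, and the strand setting of the counting is unknown, which holds for overlaps in Cenpp and Ska3 too. With all oocytes the ratio was 1.04, and it was negative only under ERCC scaling of all 59 oocytes (-0.39; 0.59 without the 21).

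Its 3 complex partners did not share that size. Cenpp was at 10.8 to 29.2 CPM in young oocytes (median 16.8) and at 16.7 to 41.1 in the 38 aged (median 29.4), and 20 of the 38 were above the highest young oocyte. Its log2 ratio was 0.69 without the 21 libraries and 0.34 with them, against -0.11 and -1.03 with ERCC scaling. Cenpu and Cenpo, in contrast, were at -0.069 and -0.31 without the 21. Cenpk, of a neighbouring group in the network, had a median of 31.9 CPM in the young and 47.0 in the 38 aged oocytes.

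The rest of the inner network lay nearer to the young level once the 21 libraries were left out. Over the 12 genes of the network with the level, the median log2 ratio was 0.096 without the 21 and -0.21 with all aged oocytes. Without the 21 libraries Cenph was at 0.046, Cenpc1, which bridges CENP-A chromatin to the Mis12 complex, at 0.023, Cenpx at 0.15, Cenpm at 0.22, Cenpw at 0.28 and Cenpi at -0.23. Cenpn, the highest per kb of exon, was at 475 to 1394 CPM in young oocytes (median 661) and at 399 to 976 in the 38 aged (median 569.6), with 6 of the 38 below every young oocyte (log2 -0.15). Dsn1 was at 457 to 820.1 CPM (median 597) and at 345 to 695 (median 538), with 9 of the 38 below every young oocyte (log2 -0.18). For both the ranges overlapped widely.

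Mis18a, the priming factor for CENP-A, lies on chromosome 16 at 90719312 to 90727404 (GRCm38, minus strand). It was at 11.6 to 126 CPM in young oocytes (median 42.6), at 16.1 to 322 in the 38 aged (median 109.8) and at 0 to 57.1 in the 21 (median 4.36). The groups overlapped widely, and 13 of the 38 lay above the highest young oocyte while 31 lay above the young median. Within the 38 the level varied with the library number, at 72.9 to 322 CPM in those numbered 14 to 36 and mostly lower, at 16.1 to 155, in those numbered 41 to 56. Whether this order marks a batch is unknown, and its part in the ratio and in the spread of Mis18a was not tested. Summed levels were 46.2 CPM (45.4 to 47.0) in the young and 113 (112 to 114) in the 38, a 2.44-fold difference (log2 1.27, or 0.89 with all oocytes; 0.44 and -0.56 with ERCC scaling). With the median over all oocytes in place of the sum, the ratio was 0.44 and no longer past 1.5-fold. Mis18a also varied more between oocytes than genes of like level: its coefficient of variation was 55.4% in the young and 64.5% in the 38 aged, against medians of 23.3% and 21.1% over genes within 0.5 log2 units of its level. In each group that put it at about the 99th percentile of those genes.

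The other loading factors did not follow. Hjurp was at 295 to 723 CPM in the young (median 491), 215 to 620 in the 38 aged (median 385) and 3.94 to 255 in the 21 (median 61.0), with 12 of the 38 above the young median. Its log2 ratio of -0.68 with all oocytes became -0.33 without the 21, below 1.5-fold. Cenpa itself was at 84.4 to 182 CPM in the young and 74.4 to 168 in the 38 aged, with a log2 ratio of -0.011, and the ranges nearly coincided.

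The Ska complex split. Ska3 was at 8.99 to 46.5 CPM in young oocytes (median 25.9) and at 18.8 to 77.3 in the 38 aged (median 43.3), and 16 of the 38 were above every young oocyte. Among the 38, Ska3 was at 36.1 to 77.3 CPM in libraries numbered 14 to 36 and at 18.8 to 53.1 in those numbered 41 to 56. The part of this order in the ratio of Ska3 was not tested. Ska1 was at 10.5 to 24.96 CPM (median 19.2) against 15.7 to 43.6 (median 27.7), with 24 of 38 above every young oocyte. Ska2 had the lowest log2 ratio of the 30 genes without the 21 libraries, at 6.20 to 26.6 CPM (median 17.3) against 7.19 to 19.0 (median 12.2), with 4 of 38 above the young median. The log2 ratios were 0.76, 0.59 and -0.49 without the 21 libraries and 0.41, 0.28 and -0.49 with them, and with ERCC scaling those of Ska3 and Ska1 were -0.054 and -0.21 without the 21 and -0.998 and -1.09 with them.

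The load-bearing outer subunits stayed near the young level once the 21 libraries were left out. Ndc80 was at 123 to 220 CPM in the young (median 155) and at 114 to 239 in the 38 aged (median 166), Nuf2 at 259 to 378 (median 294) and 225 to 408 (median 301). The ranges nearly coincided, and log2 ratios were 0.045 and -0.0068. Spc24 and Spc25 were at 0.18 and 0.31, Mis12, Dsn1 and Pmf1 at 0.025, -0.18 and 0.19, Knl1 and Zwint at 0.056 and 0.21, and the corona genes Cenpe and Cenpf at -0.059 and 0.041. With all aged oocytes the median log2 ratio was -0.15 in the Ndc80 complex and -0.069 in the Mis12 complex. It was -0.14 for Knl1 and Zwint and -0.26 for the corona genes. Nuf2 and Cenph were among the steadiest genes of their level in the young, with coefficients of variation of 10.3% and 10.7%, at the 5.09th and 3.40th percentile of genes of like level.

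**Figure D3:**
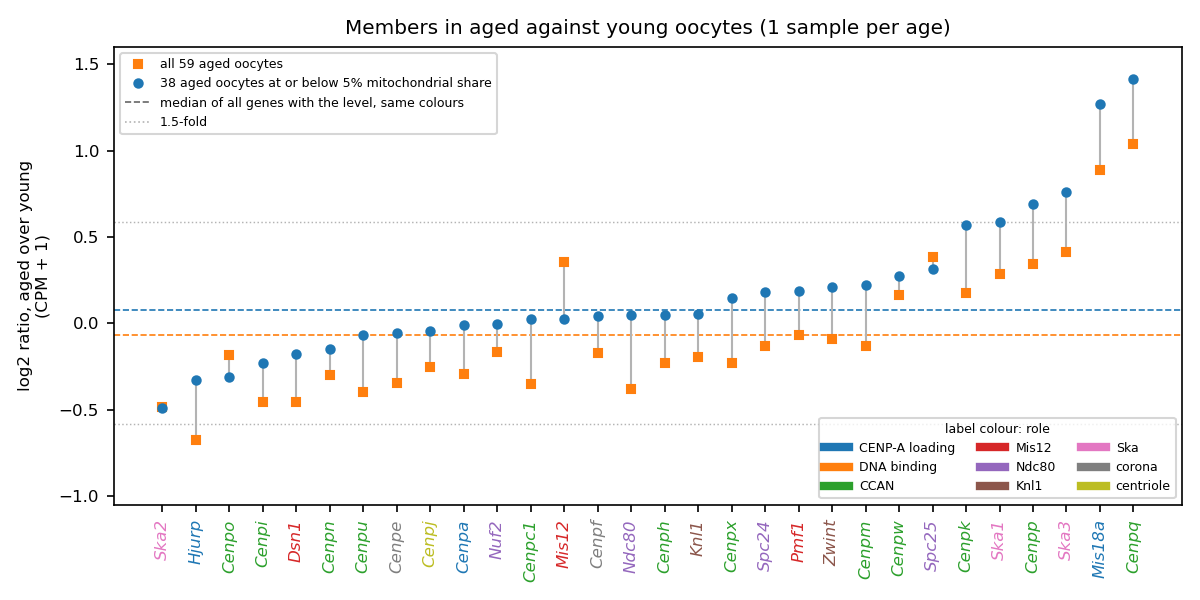
Log2 ratio of aged over young in summed CPM plus 1 for the 30 genes with a level of at least 5 CPM, with all 59 aged oocytes (orange squares) and with the 38 below the mitochondrial limit (blue circles); label colours give roles. Cenpq and Mis18a lie highest in both, and with ERCC scaling of all oocytes every gene is below 0.

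**Figure D4:**
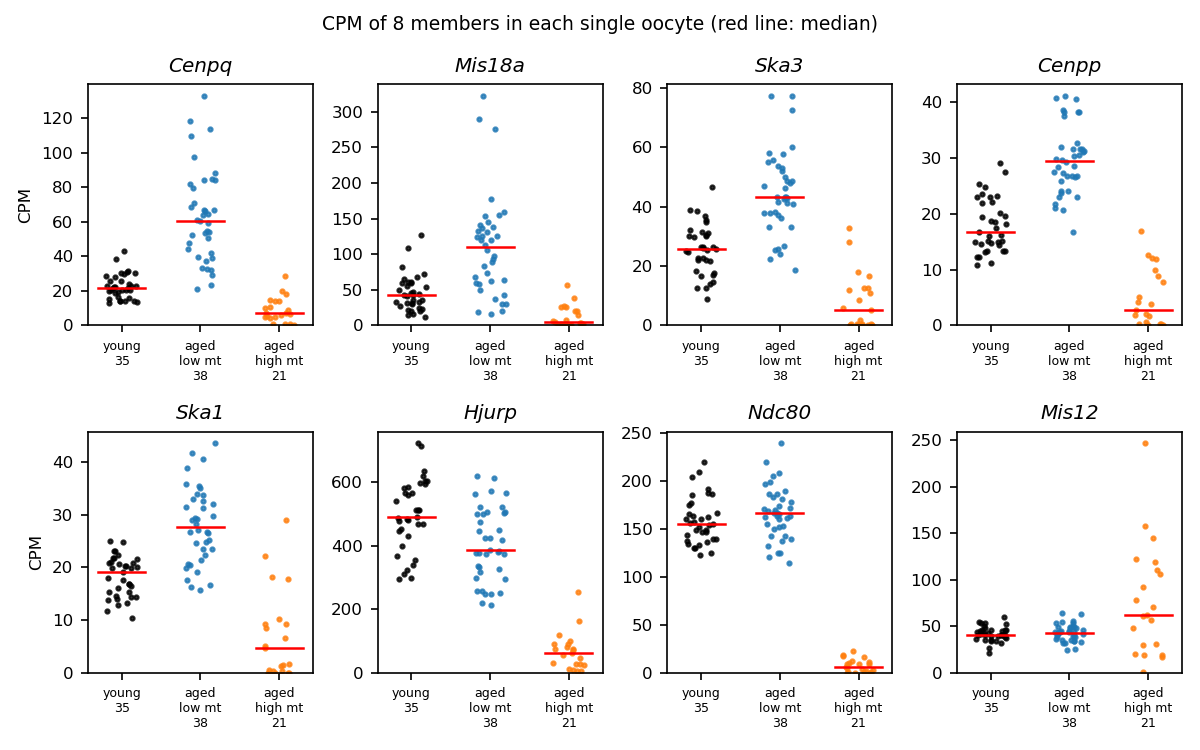
CPM of 8 genes in each single oocyte on linear axes from 0, for 35 young oocytes, 38 aged oocytes at or below 5% mitochondrial share (low mt) and 21 above it (high mt); red lines are medians and points are spread sideways only to be seen. In the 38 aged oocytes Cenpq, Mis18a, Ska3, Cenpp and Ska1 reach above the young range, Ndc80 and Mis12 have medians near the young ones, and in the 21 others Ndc80 is near 0 while Mis12 is spread widely (with ERCC scaling Ska3, Cenpp and Ska1 turn to values below 0 in log2 ratio).

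In the 21 libraries above the mitochondrial limit the kinetochore RNAs were mostly low and uneven. The summed level of the members was 4138 to 5700 CPM in young oocytes, 4017 to 5263 in the 38 aged and 673 to 3983 in the 21. Against the young, the median log2 ratio was -1.46 for the members and -0.85 for all 7872 genes with the level, and 25 of 30 members (83.3%) were at least 1.5-fold lower, against 56.0% of all genes. Ndc80 had a median of 6.48 CPM (0 to 23.2), below every young oocyte in all 21. Cenpc1, Cenpk, Cenpu and Hjurp were also below every young oocyte in all 21. By contrast Mis12 had a median of 62.2 CPM and a range of 0.546 to 247, against 21.1 to 59.9 in the young. Spc25 and Cenpo were the other genes with a ratio above 0, at 0.55 and 0.12 beside 0.99 for Mis12. These libraries had a low summed level of oocyte markers, as given above, and the part of that in these values was not tested.

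Of the 32 regulators and partners, 28 had the level in this comparison. Without the 21 libraries 6 of the 28 were at least 1.5-fold higher and 0 lower, against 8.87% and 1.87% of all 8413 genes with the level. Bub1, the checkpoint kinase that phosphorylates histone H2A at centromeres, was at 19.1 to 42.5 CPM in young oocytes (median 30.9) and at 36.5 to 120.3 in the 38 aged (median 71.9), and 37 of the 38 were above every young oocyte (log2 1.18). Ttk, the Mps1 checkpoint kinase, was at 40.6 to 89.0 against 81.8 to 169 CPM (log2 0.91), with 34 of 38 above every young oocyte. With ERCC scaling these ratios were 0.36 for Bub1 and 0.087 for Ttk, and -0.55 and -0.46 with all oocytes. Zw10 (0.98), Birc5 (0.82), Zwilch (0.65) and Clasp1 (0.62) were the other 4, and none of the 28 was 1.5-fold higher with ERCC scaling. With all aged oocytes 5 of the 28 were higher (Bub1, Ttk, Zw10, Cenps and Clasp1) and 3 lower (Bub1b at -0.71, Plk1 at -0.73 and Mad2l1bp at -0.90). Of all 8303 genes with the level, 9.45% were higher and 9.38% lower.

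Genes of 1 role did not, as a rule, vary together from oocyte to oocyte. Spearman correlations of CPM were taken within each group for all 435 pairs of the 30 genes, as a description: the oocytes are from 1 sample per age, and each CPM shares its library's total and depth. The median rho was 0.036 over 35 young oocytes and 0.077 over the 38 aged. Pairs within 1 role, which can be a complex or the whole inner network, had medians of 0.036 and 0.13. Other pairs had medians of 0.035 and 0.061. Ndc80 and Nuf2, whose proteins are obligate partners, were at 0.027 and 0.43, and Spc24 and Spc25 at 0.32 and 0.0060. By rho with Ndc80, Nuf2 was 4549th of 8229 genes in the young but 187th of 8540 in the aged, where 0.60% of genes reached 0.5. By rho with Spc24, Spc25 was 572nd in the young and 3773rd in the aged.

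A few pairs did move together in both groups. Of 14 pairs at 0.5 or more in the young and 30 in the 38 aged, 7 were shared, 50% of the first list and 23.3% of the second. Cenpn and Dsn1, whose promoters are shown above, were at 0.78 in the young and 0.83 in the aged, and both followed Cenpu (0.59 and 0.67 for Cenpn, 0.60 and 0.79 for Dsn1). Cenpe and Cenpf, the corona genes, were at 0.77 and 0.57. Cenpp and Cenpq, of 1 complex, were at 0.63 and 0.54, Cenpm and Spc24 at 0.59 and 0.50, and Cenpe and Cenpx at 0.52 and 0.61. Many other genes followed these members as well, and the share of all gene pairs at 0.5 or more was not computed. Ranked among all genes by rho with Cenpn, Dsn1 was 66th of 8229 in the young and 26th of 8540 in the aged. With Cenpn 675 and 594 genes reached 0.5 (8.20% and 6.96%), and with Cenpe 765 and 840 (9.30% and 9.84%). Cenpf was 33rd and 571st by its rho with Cenpe. By rho with Cenpp, Cenpq was 51st and 146th, and 296 and 249 genes reached 0.5 (3.60% and 2.92%). Cenpq and Ska3, both higher in the 38 aged oocytes, were at 0.22 in the young and at -0.73 in the aged. The latter was the lowest rho of the 435 pairs in the aged, where oocytes with more Cenpq tended to hold less Ska3. Among the 38, libraries numbered 41 to 56 mostly held more Cenpq and less Ska3 than those numbered 14 to 36, with overlap. Whether this order marks a batch is unknown. Its part in the rho and the difference between ages were not tested.

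**Figure D5:**
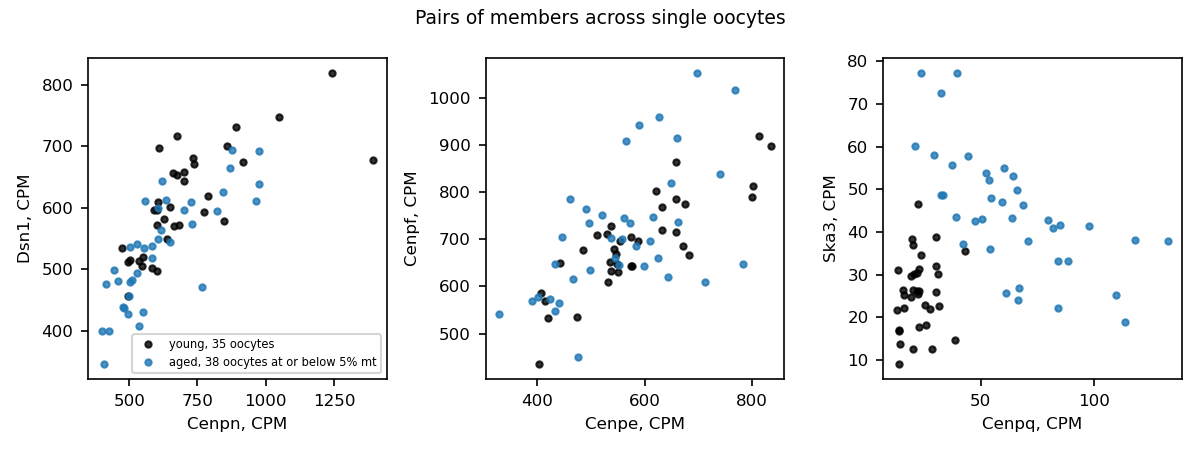
CPM of 3 pairs of genes in each of 35 young oocytes (black) and 38 aged oocytes at or below 5% mitochondrial share (blue), on linear axes. Cenpn with Dsn1 and Cenpe with Cenpf rise together in both groups, and Cenpq with Ska3 runs downward in the aged oocytes (rho -0.73, and 0.22 in the young), a difference that was not tested. That rho was the lowest of the 435 pairs in the aged, and both genes varied with the numbering of the aged libraries.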

How the data were processed

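Polyadenylated RNA was measured by Smart-seq2 in 94 single oocytes (2 samples) and 4 pools. The values deposited by the authors are raw read counts for each gene. STAR 2.7.10b, HTSeq 0.13.5 and mm10 are named per the submitters' processing notes; the annotation and strand setting are not given in the sources used here, and PCR reads carried no molecular identifiers, so intervals cover counting error only. The pool table held 0 mitochondrially encoded genes.

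Pools were tested with edgeR 4.0.16 (R 4.3.3), the robust quasi-likelihood test with TMM factors and filterByExpr (minimum count 10, total 15), over all genes, with Benjamini-Hochberg adjustment at 0.05; pool CPM are after TMM. DESeq2 1.42.0 and limma 3.58.1 were alternatives. SE is the log2 fold change divided by the square root of F. Single-oocyte counts were summed per group, without the 92 ERCC entries, and log2 ratios used CPM plus 1. Exon lengths and positions are from GENCODE vM21. Scripts were tested on simulated data. The main fit did not pair pools by number. With 2 pools a group, the deviations of same-numbered pools (correlation -0.098) and of crossed pools (0.098) mirror each other, so they cannot settle whether the numbers pair the samples. Every member is named; values per library are given for members past a threshold or of highest level. Members, lists and the 5% limit were chosen with earlier results of these data known.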

Additional observations from a re-analysis of the deposited data

How the results depend on the processing

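In the pools, direction and side of the threshold were kept in 314 of 340 combinations of gene and alternative, 13 passed newly and 13 changed sign. No member passed with DESeq2 size factors in edgeR, upper quartile factors or limma-voom. DESeq2 called 2 higher and 1 lower, and the fit with no filter 1 higher (Cenpm) and 1 lower (Spc24). Leaving out 1 pool gave 0 to 5 higher and 0 to 2 lower, among 157 to 1145 calls over all genes, and a median of 0.10 to 0.17 where all pools gave 0.22 and limma-voom 0.18; a group left with 1 pool is assumed to vary like the other. With the replicate block 0 members passed and 273 of all genes, against 394; no member's call changed, Oip5 turned to -0.082, and it was at -0.059 with limma-voom. Leaving out 1 pool, signs changed within these ranges: Cenpa -0.28 to 0.21, Cenpc1 -0.20 to 0.34, Cenpo -0.12 to 0.44, Cenpt -1.06 to 1.37, Nsl1 -0.034 to 0.48, Ska1 -0.22 to 0.12, Mis18a -0.080 to 0.12, Hjurp -1.70 to 0.64 and Oip5 -0.67 to 0.48. The cause was not tested.

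For aged against young, main values were 2 higher, 1 lower and a median of -0.18. Without the 21 libraries they were 5, 0 and 0.046. The median over oocytes gave 1 higher and a median of -0.14, the mean -0.27, no filter -0.16, and totals without mitochondrial genes 0 lower and -0.055. ERCC totals gave 0, 28 and -1.64, with Cenpq at -0.39 and Mis18a at -0.56. Added after seeing the data, the median over oocytes without the 21 libraries gave 4, 0 and 0.057, and ERCC totals without them 1, 20 and -0.78. The other settings kept both counts within 1.5 times. Cenpb, Cenpl, Cenpt, Nsl1 and Oip5 lay below 5 CPM, the level set for the ratios, and no difference is read from them. With no filter and all 59 aged oocytes, 2 of 35 members were higher and 1 lower, on ratios of CPM plus 1, which draw low levels toward 0.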

Other observations

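Members with a shorter union of exons tended to have the higher ratios in both comparisons; the length of the transcripts present in the oocyte was not measured. Across members, Spearman's rho of the log2 value with exon length was -0.30 in siPlat over siCtrl (34 genes) and -0.52 in aged over young without the 21 libraries (30 genes), against -0.14 and -0.057 over all genes with a length. In the second, the 15 shorter members, which include Cenpq (2604 bases of exon), Cenpp (2564), Ska3 (2705) and Mis18a (2863), had a median log2 ratio of 0.18 and the 15 longer members 0.023. With all aged oocytes rho was -0.44 against 0.075. Genes are not independent replicates, and no test was made.

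Cytoplasmic polyadenylation elements, which recruit CPEB and govern translation of stored RNAs during maturation, were searched as the letters TTTTAT or TTTTAAT in the last 100 bases of the longest complete coding transcript (GENCODE vM21). They were found in 9 of 35 members (25.7%), among them Cenpe, Cenph, Cenpn, Cenpu, Ndc80 and Spc24, against 20.5% of 10327 tested genes. In siPlat over siCtrl the 9 with the letters had a median log2 fold change of -0.13, with 4 above 0, and the 25 without 0.26, with 20 above 0; over all genes the medians were -0.050 and -0.028. In aged over young without the 21 libraries the medians were -0.0067 (8 members) and 0.10 (22).

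Exons of 10 members overlap an exon of a gene on the opposite strand, and with the strand setting not given such reads cannot be told apart. Cenpq shares 95 bases with Mut, whose log2 ratio of aged over young without the 21 libraries was -0.40 against 1.41 for Cenpq. Cenpp shares 315 bases with Ippk (0.21 against 0.69), Ska3 78 with Sap18 (0.27 against 0.76) and Oip5 172 with Nusap1 (1.17).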
